A study of Mus musculus with 6 samples.

Results

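A set of 10 transcripts of complement components, receptors and a C1q-like protein was followed in the brainstem: C1qa, C1qb, C1qc, C1ra, C2, C4b, C3, C3ar1, C5ar1 and C1ql1. They were chosen by gene symbol, and all 10 of 10 were found among the 18058 genes of the normalized table. RNA came from 6 brainstem samples of uninjected mice aged 1 month, 3 of the WT strain C57BL/6J and 3 labelled Rag1-/-. The study's methods give the strain of the latter as B6.129S7-Rag1tm1Mom/J. Rag1-/- mice carry a germline loss of the recombinase component Rag1 in all tissues and lack mature T and B cells, and neither group received tumor cells. The study compared these brainstems to look for host transcripts that differ where human low-grade glioma xenografts can grow.

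Complement is a cascade of secreted proteins that tags surfaces and recruits phagocytes. The classical pathway starts with C1, in which the recognition molecule C1q carries the proteases C1r and C1s, and C1 then cleaves C4 and C2 to form an enzyme that cleaves C3. Fragments of C3 coat the target, and small fragments of C3 and C5 act on the receptors C3ar1 and C5ar1 of myeloid cells. In brain, C1q is made mainly by microglia, and C1q and C3 are known for tagging synapses for removal by microglia. C1ql1 shares the C1q type of domain but is a synaptic organizer secreted by inferior olive neurons of the brainstem, and it has no known place in the cascade.

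The libraries held an estimated 31.6 to 46.3 M reads, and levels are given in CPM, the reads of a gene scaled to a common library total. The deposited genes summed to 80.2% to 80.4% of that total in WT and to 79.1% to 79.8% in those labelled Rag1-/-. A level of 3 reads equals between 0.0647 and 0.0950 CPM, a limit that covers counting error only. Rag1, examined first, measured 0.236, 0.388 and 0.115 CPM in WT (replicates 1, 2 and 3) and 2.60, 4.02 and 2.90 CPM in those labelled Rag1-/-. The targeted gene was therefore higher in the libraries with that label, and every direction given here rests on the label. Xist, the RNA that coats the inactive X chromosome, reached 172 CPM in WT replicate 1 and 177 CPM in WT replicate 2, against 0.462 to 2.93 CPM in WT replicate 3 and the libraries labelled Rag1-/-. The level of Xist and the genotype are thus partly confounded, and WT replicate 3 is the only WT library with low Xist. WT replicate 3 also held 108 CPM of Cbln3, a granule cell transcript of the cerebellum named here after its values were seen, against 6.01 to 28.7 CPM in the other libraries.

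C4b and C3 were the members that differed most between the groups, and for each the 3 Rag1-/- values all lay below the 3 WT values. The mean level of C4b was 69.1% and that of C3 was 71.4% of the WT mean. The same measure was 94.8% for C1qa, 96.9% for C1qb and 92.0% for C1qc, the chains of C1q, and 99.3% for C1ql1. None of the 10 members had an adjusted p under 0.05 by limma-trend over all 16762 genes tested, where 0.0477% of genes did (8 genes; 0.0358% lower and 0.0119% higher), and 3 of the 10 (C1qc, C3 and C4b) had an unadjusted p of at most 0.05. All 3 of these were lower, a direction and threshold that 9.29% of the genes tested reached, while 2.27% reached it as higher and 0 members did. The 2 members whose groups did not overlap, both lower, compare with 14.4% of genes tested, and 3.98% were separated in the higher direction, as 0 members were. Of the 10 members, 9 had a log2 fold change below 0, as did 67.7% of genes tested, and the median was -0.08 for the members and -0.05 for all genes. These tallies depend on scaling: 8 of the 10 were below 0 with median-of-ratios rescaling and 6 of the 10 with quantile normalization, where the median of all genes was -0.0060 and 0.0020.

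**Figure D1:**
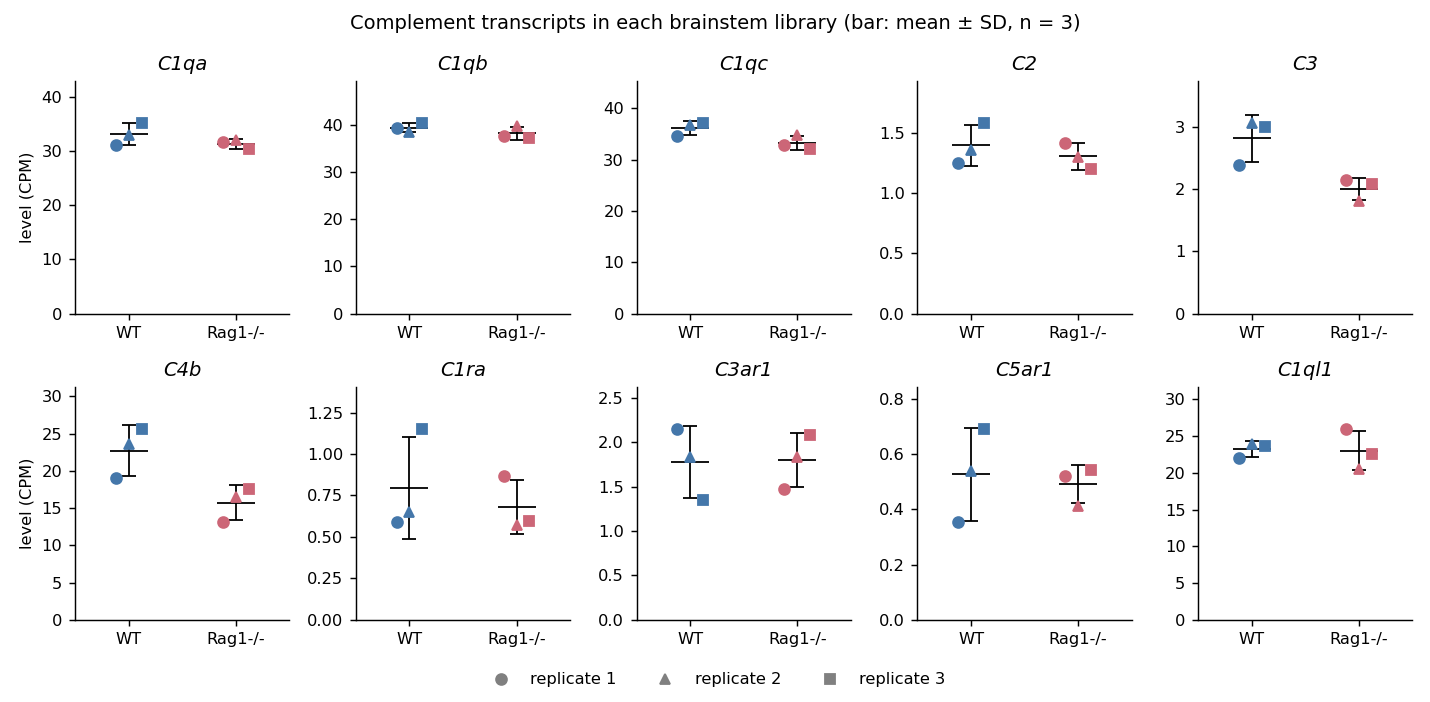
Level in CPM (linear axis from 0) of the 10 complement transcripts in WT (blue) and Rag1-/- (red) libraries, with 1 point per library and bars for the mean ± SD (n = 3). C3 and C4b are the panels in which the 3 red points lie below the 3 blue points.

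On a scale that corrects for transcript length (CPM per kb of the longest annotated coding transcript), the members spanned a wide range of levels. C1qb was highest, at a mean over the 6 libraries of 35.6 CPM per kb (range 34.1 to 37.1), followed by C1qa at 31.0 (29.2 to 33.8) and C1qc at 28.9 (26.7 to 30.9). The ranges of C1qa and C1qc overlapped, although C1qa was above C1qc in 6 of 6 libraries. C1ql1 came next at 15.7 CPM per kb (14.0 to 17.6), and C4b at 3.57 CPM per kb (2.43 to 4.76). C2, C3 and C3ar1 were not separated from each other, with means of 0.511, 0.469 and 0.415 CPM per kb and overlapping ranges. C1ra, at 0.247 CPM per kb, and C5ar1, at 0.200 CPM per kb, were lowest and overlapped each other, and the range of C1ra also overlapped that of C3ar1. The lowest members rested on few reads. C5ar1 rested on an estimated 13 to 25 reads per library and C1ra on 18 to 40 reads, against 1012 to 1526 reads for C1qa.

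The 3 chains of C1q are encoded by neighbouring genes within 18.7 kb of chromosome 4 (chr4:136880145-136898844, mm10, minus strand), in the order C1qb, C1qc, C1qa. Each chain joins a collagen-like stalk to a globular head, and C1ql1 (chr11:102939264-102946461, minus strand) has the same plan. The stalk is shown here as a feature that C1ql1 has in common with the complement chains, beside the globular C1q domain. Each line gives the longest in-frame run of glycine codons spaced as in collagen (GGNNNNNNN), from the GENCODE M21 coding sequence on GRCm38, with the GG of each glycine codon in capitals.
C1qa: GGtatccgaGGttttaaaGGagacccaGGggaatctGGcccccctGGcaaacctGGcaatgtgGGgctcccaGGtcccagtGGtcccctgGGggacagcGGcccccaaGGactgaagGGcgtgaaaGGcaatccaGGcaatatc
C1qb: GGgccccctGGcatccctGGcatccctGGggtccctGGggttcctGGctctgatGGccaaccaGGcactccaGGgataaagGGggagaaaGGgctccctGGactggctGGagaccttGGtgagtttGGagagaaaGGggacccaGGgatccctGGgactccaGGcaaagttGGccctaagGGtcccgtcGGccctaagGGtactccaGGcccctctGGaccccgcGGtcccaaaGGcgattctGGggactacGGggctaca
C1qc: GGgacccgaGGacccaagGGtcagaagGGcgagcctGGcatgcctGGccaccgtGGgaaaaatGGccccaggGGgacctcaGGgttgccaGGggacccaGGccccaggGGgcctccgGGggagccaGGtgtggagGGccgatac
C1ql1: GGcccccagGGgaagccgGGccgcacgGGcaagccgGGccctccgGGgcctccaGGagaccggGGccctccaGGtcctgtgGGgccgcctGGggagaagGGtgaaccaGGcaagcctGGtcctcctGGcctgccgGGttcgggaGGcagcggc
The run of C1qa has 16 repeats (codons 62 to 109 of 245) and lies in exon 3 of 3, at chr4:136896565-136896708. The run of C1qb has 29 repeats (codons 31 to 117 of 253) and crosses from exon 2 into exon 3 (chr4:136880700-136882217, intron included). C1qc has 16 repeats in exon 3 (codons 68 to 115 of 246, chr4:136890439-136890582), and C1ql1 has 17 in exon 1 of 2 (codons 67 to 117 of 258, chr11:102946111-102946263). None of the 50-base windows of these 4 transcripts occurred in a transcript of another gene, so their reads are not shared with a paralog at that length.

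C1qa measured 31.1, 32.9 and 35.2 CPM in WT (replicates 1 to 3) and 31.7, 32.1 and 30.3 CPM in those labelled Rag1-/-. C1qb was at 39.4, 38.4 and 40.4 CPM in WT and at 37.6, 39.8 and 37.1 CPM in those labelled Rag1-/-. C1qc was at 34.7, 36.7 and 37.2 CPM in WT and at 33.0, 34.8 and 32.1 CPM in those labelled Rag1-/-. The groups overlapped for all 3 chains, and the spread within a group was small, with a coefficient of variation between 2.42% and 6.14%.
The log2 fold changes were -0.07 for C1qa (95% interval -0.21 to 0.06), -0.05 for C1qb (-0.16 to 0.06) and -0.12 for C1qc (-0.24 to -0.00039). The unadjusted p of C1qc was 0.0494 by limma-trend, with an adjusted p of 0.431, and the adjusted p was 0.625 for C1qa and 0.728 for C1qb. As folds, the intervals run from 0.867 to 1.04 for C1qa, from 0.897 to 1.04 for C1qb and from 0.847 to 1.00 for C1qc. C1qc kept an unadjusted p of at most 0.05 in 5 of 16 alternatives, and with median-of-ratios rescaling its log2 fold change was -0.075.

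The proportions of the chains were steady across libraries. C1qa made up between 31.5% and 33.2% of C1q transcripts per kb, C1qb between 36.2% and 38.1%, and C1qc between 29.6% and 31.3%. The share of C1qc was 30.7% ± 0.531 in WT and 29.8% ± 0.212 in those labelled Rag1-/- (SD, n = 3), lower in each of the latter, with p = 0.1 in an exact two-sided permutation test, the smallest p that 3 samples against 3 allow. The shares of C1qa and C1qb overlapped between the groups (exact permutation p = 1 and 0.4). The 3 chains enter the C1q molecule in equal number.

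Microglia markers overlapped between the groups. The summed level of 14 markers (Tmem119, P2ry12, P2ry13, Sall1, Siglech, Cx3cr1, Csf1r, Aif1, Trem2, Tyrobp, Gpr34, Olfml3, Fcrls and Ctss) was between 274 and 310 CPM in WT and between 274 and 304 CPM in those labelled Rag1-/-, and all 14 were detected in every library. Of the 14, 1 (Ctss) had an unadjusted p of at most 0.05 and was lower, beside 9.29% of all genes tested. The ratio of summed C1q chains to these markers was 0.363, 0.349 and 0.411 in WT replicates 1, 2 and 3 and 0.358, 0.351 and 0.363 in those labelled Rag1-/-. WT replicate 3 was the library with the highest ratio, and the groups overlapped (log2 difference -0.062, exact two-sided permutation test, p = 0.7), with a difference of 0.0077 when that library was left out. In whole tissue, fewer cells of a type and less RNA per cell cannot be told apart.

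**Figure D2:**
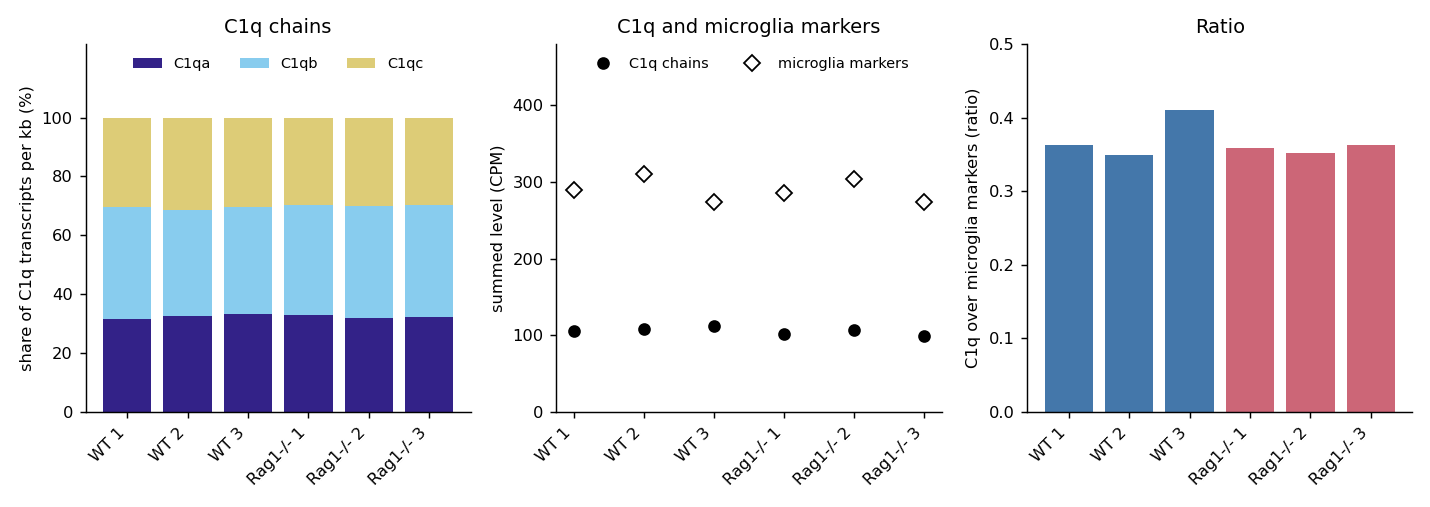
Left, share of each C1q chain in the summed C1q level per kb of transcript in the 6 libraries (percent). Middle, summed CPM of the C1q chains and of 14 microglia markers. Right, the ratio of the former to the latter, which lies between 0.349 and 0.411 in all 6 libraries (bars from 0, blue WT, red Rag1-/-).

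C1ra (chr6:124512621-124523440, plus strand) encodes the protease C1r, which C1q carries and which activates C1s. It was at 0.590, 0.649 and 1.15 CPM in WT and at 0.866, 0.570 and 0.598 CPM in those labelled Rag1-/-. A single library per group stood high, WT replicate 3 and replicate 1 labelled Rag1-/-, and the groups overlapped. The log2 fold change was -0.17 (95% interval -0.80 to 0.45, limma-trend, adjusted p = 0.829) and turned to 0.095 without WT replicate 3. Nearly the same sequence lies in the paralog C1rb, which was listed but is not among the deposited genes. C1rb shares 48.0% of the 50-base windows of C1ra, so the count of C1ra is uncertain. C1s1, the gene of the partner protease C1s, was at 0.457, 0.517 and 0.766 CPM in WT and between 0.749 and 0.780 CPM in those labelled Rag1-/- (log2 fold change 0.37, adjusted p = 0.525). Its paralog C1s2 was at the file minimum of 0.0001 CPM in 2 libraries labelled Rag1-/- and at most at 0.237 CPM elsewhere.

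C4b and C2 lie within 154 kb on chromosome 17 (chr17:34728381-34882100, minus strand), in a region that also holds C4a and Cfb. C4b encodes complement C4, whose larger fragment binds covalently to the target and docks C2, and in brain it is transcribed in astrocytes among other cells. C4b measured 19.0, 23.6 and 25.6 CPM in WT (replicates 1, 2 and 3) and 13.1, 16.5 and 17.6 CPM in replicates 1, 2 and 3 labelled Rag1-/-. The lowest WT library was thus above the highest library labelled Rag1-/-, by less than the spread within either group. The means were 22.7 ± 3.36 CPM in WT and 15.7 ± 2.36 CPM in those labelled Rag1-/- (SD, n = 3). The log2 fold change was -0.53 (standard error 0.13, 95% interval -0.83 to -0.23), and the unadjusted p was 0.00361 by limma-trend, with an adjusted p of 0.319. In an exact two-sided permutation test p was 0.1, the smallest that 3 against 3 allow.

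The paralog C4a, known as sex-limited protein, is 96.1% identical to C4b over 5367 aligned transcript bases, with an identical run of 433 bases, and shares 35.2% of the 50-base windows of C4b. Reads from such stretches could be assigned to either gene. The lines below give the 90 coding bases in which the genes differ most (exon 21 of 41 in both, GRCm38, minus strand, C4b at chr17:34735430-34735519 and C4a at chr17:34816086-34816175), with the 14 differing bases in capitals.
C4b: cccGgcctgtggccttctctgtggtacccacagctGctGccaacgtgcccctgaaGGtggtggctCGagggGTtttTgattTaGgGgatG
C4a: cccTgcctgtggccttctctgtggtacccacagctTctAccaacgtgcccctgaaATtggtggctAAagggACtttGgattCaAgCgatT
C4a was listed at 0.130 to 0.485 CPM in WT and 0.170 to 0.399 CPM in those labelled Rag1-/-. C4b made up between 97.5% and 99.5% of the sum of both genes in all 6 libraries (exact permutation p = 0.8 for a difference).

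C2 (chr17:34862602-34882100) encodes the serine protease of the classical and lectin C3 convertase. It was at 1.25, 1.36 and 1.58 CPM in WT and at 1.42, 1.30 and 1.20 CPM in those labelled Rag1-/-, with overlapping groups. The log2 fold change was -0.09 (95% interval -0.45 to 0.27, limma-trend, adjusted p = 0.845), a fold between 0.732 and 1.21. Of the 50-base windows of C2, 58.0% also occur in an annotated transcript of Gm20547, which is not analysed here, so the level of C2 is uncertain in the same way as that of C1ra. Factor B, the matching protease of the alternative pathway, is encoded by Cfb, which is separated from C2 by 0.087 kb. Cfb was at 1.11, 1.18 and 1.32 CPM in WT and at 1.18, 0.824 and 0.997 CPM in those labelled Rag1-/- (log2 fold change -0.25, adjusted p = 0.597). C2 and Cfb, and C4a above, thus overlapped between the groups where C4b did not, and their difference from C4b was not tested.

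C3 (chr17:57203967-57228136, minus strand) encodes the protein on which all activation routes meet. It measured 2.38, 3.06 and 2.99 CPM in WT (replicates 1, 2 and 3) and 2.14, 1.81 and 2.08 CPM in replicates 1, 2 and 3 labelled Rag1-/-. WT replicate 1 was the closest to the other group, and the groups did not overlap. The means were 2.81 ± 0.371 CPM and 2.01 ± 0.177 CPM (SD, n = 3), from an estimated 57 to 142 reads per library. The log2 fold change was -0.46 (standard error 0.14, 95% interval -0.79 to -0.13), for which limma-trend gave p = 0.0116 unadjusted and an adjusted p = 0.354, and an exact permutation test p = 0.1. The ratio of C4b to C3 per kb was 7.72 ± 0.420 in WT and 7.55 ± 1.51 in those labelled Rag1-/- (SD, n = 3, exact two-sided permutation test, p = 0.9).

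Both genes kept an unadjusted p of at most 0.05 in all 16 alternative ways of processing, and their direction in the 11 of these that can change a fold, and in none was an adjusted p under 0.05. The log2 fold change ranged from -0.71 to -0.40 for C4b and from -0.57 to -0.34 for C3, and the adjusted p from 0.104 to 0.727 for C4b and from 0.246 to 0.733 for C3. Among the libraries with low Xist, the single WT library (replicate 3) was 1.46-fold above the highest library labelled Rag1-/- for C4b and 1.40-fold above it for C3. With a term for high Xist, C4b had a log2 fold change of -0.71 and C3 of -0.56, and these values rest on WT replicate 3 alone among WT.

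**Figure D3:**
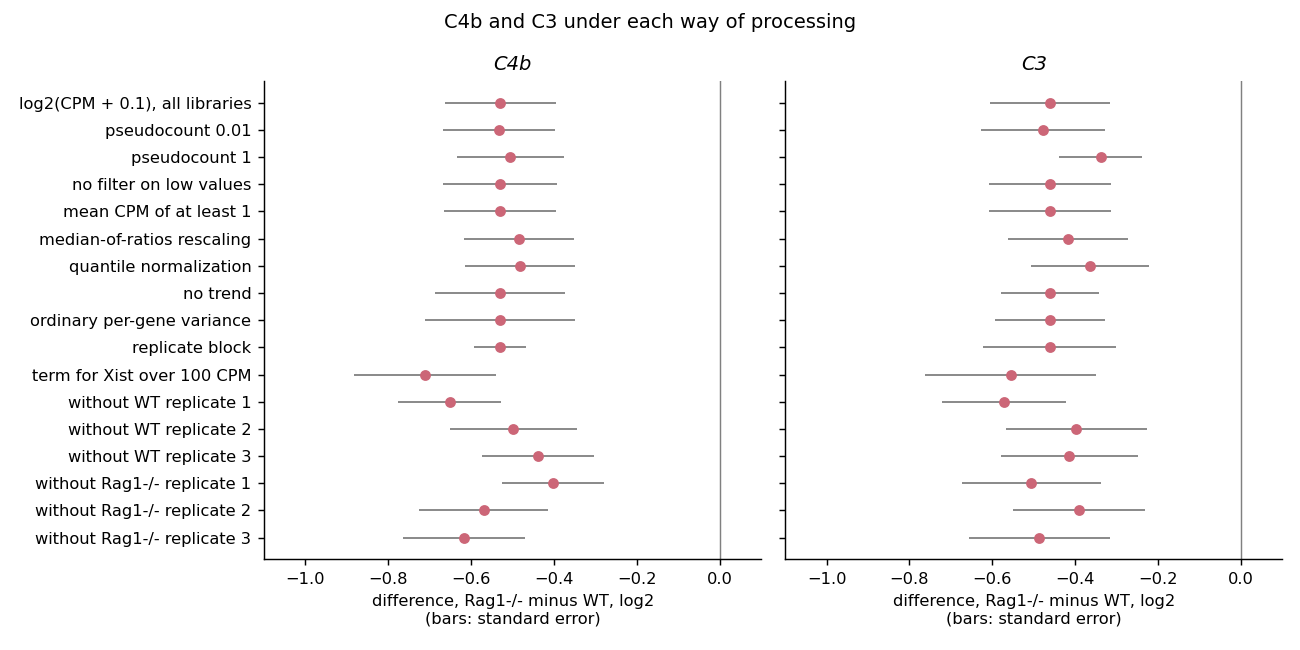
Log2 fold change (Rag1-/- minus WT) of C4b (left) and C3 (right) with its standard error, in all libraries and under each of 16 alternatives, 5 of which can change the error but not the fold. All points lie below 0, from -0.71 to -0.40 for C4b and from -0.57 to -0.34 for C3.

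Cell type markers were summed in each library to show what else moved with C4b and C3. Astrocyte markers (8 genes) were at 4256 to 4579 CPM in WT and at 4620 to 4773 CPM in those labelled Rag1-/-, the opposite order to C4b, and Aqp4 was the 1 of the 8 with an unadjusted p of at most 0.05. Oligodendrocyte markers were higher in every library labelled Rag1-/- (18658 to 21780 against 24197 to 25583 CPM), with 6 of 6 at an unadjusted p of at most 0.05. Neuron markers overlapped, with 0 of 6 at that threshold. Blood granulocyte markers (S100a8, S100a9, Mpo, Elane, Ngp and Camp) summed to 4.39, 10.8 and 16.3 CPM in WT and to 2.34 to 4.93 CPM in those labelled Rag1-/-, with 4 of 5 tested genes lower at that threshold. Choroid plexus markers reached 981 CPM in WT replicate 1, 1234 CPM in WT replicate 2 and 490 CPM in WT replicate 3, against 555 to 635 CPM in those labelled Rag1-/-, with 3 of 6 lower at that threshold. Meningeal fibroblast, border macrophage and endothelial markers overlapped. In replicates 1, 2 and 3, meningeal fibroblast sums were 151, 179 and 198 CPM in WT and 143, 168 and 168 CPM in those labelled Rag1-/- (2 of 7 lower at that threshold). Border macrophage sums were 9.86, 12.3 and 14.9 against 10.8, 11.5 and 11.8 CPM (0 of 6 at it). Endothelial sums were 172, 170 and 141 against 152, 159 and 165 CPM (1 of 5 lower at it). Over all genes tested, 9.29% were lower and 2.27% higher at this threshold. No defining marker of microglia, astrocytes, neurons, oligodendrocytes, endothelial cells, border macrophages, meningeal fibroblasts or choroid plexus was at the file minimum in any library. The part of these cell types in the levels of C4b and C3 was not tested.

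**Figure D4:**
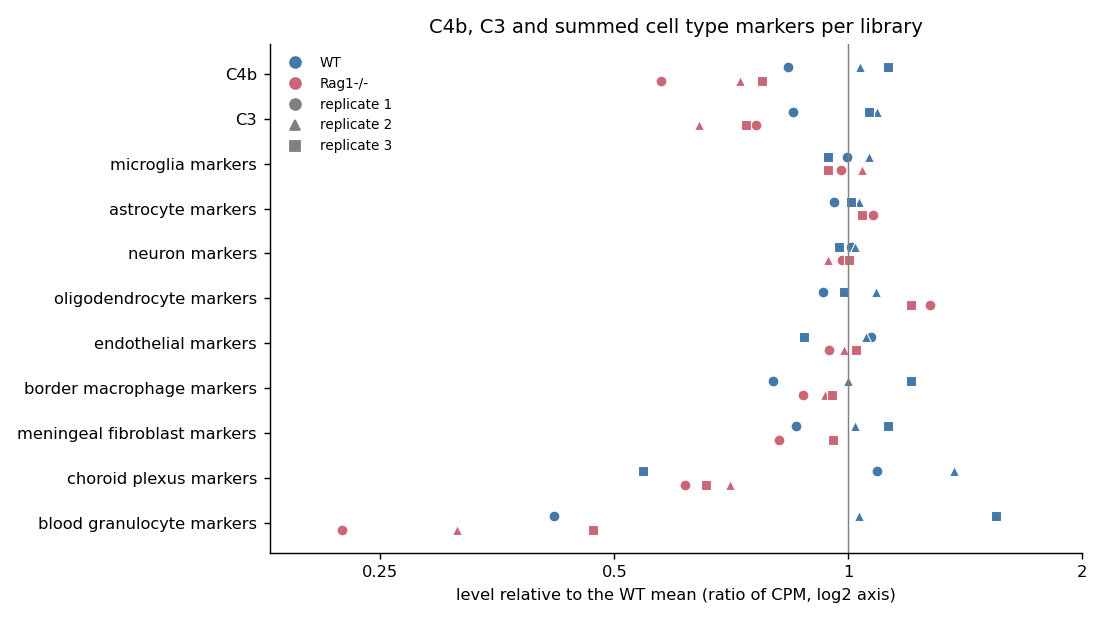
C4b, C3 and the summed CPM of 9 cell type marker lists in each library, as a ratio to the WT mean of the same row (log2 axis, blue WT, red Rag1-/-, symbol by replicate number). C4b and C3 lie lower in red, the oligodendrocyte and astrocyte sums higher in red, and the microglia and neuron sums overlap.

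C3ar1 (chr6:122847140-122856157, minus strand), the receptor of the fragment C3a, was at 2.15, 1.83 and 1.35 CPM in WT and at 1.47, 1.84 and 2.08 CPM in those labelled Rag1-/-. The WT values enclosed those of the other group, and the log2 fold change was 0.03 (95% interval -0.43 to 0.48, limma-trend, adjusted p = 0.972). C5ar1 (chr7:16246743-16259540, minus strand), the receptor of C5a that draws in myeloid cells, was at 0.354, 0.539 and 0.690 CPM in WT and at 0.520, 0.412 and 0.541 CPM in those labelled Rag1-/-. WT held both the lowest and the highest value, and the log2 fold change was -0.06 (95% interval -0.64 to 0.53, adjusted p = 0.948). As a fold this interval runs from 0.642 to 1.44. The second C5a receptor, C5ar2, was at 0.661 to 0.754 CPM in WT and 0.607 to 0.740 CPM in those labelled Rag1-/-. Hc, the gene of C5, was at 0.129 to 0.260 CPM in WT and 0.114 to 0.260 CPM in those labelled Rag1-/-, from an estimated 4 to 11 reads.

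C1ql1 was at 22.0, 23.9 and 23.7 CPM in WT and at 25.9, 20.6 and 22.6 CPM in those labelled Rag1-/-. The libraries labelled Rag1-/- spanned a wider range than WT and enclosed all 3 WT values. The log2 fold change was -0.02 (95% interval -0.21 to 0.18, limma-trend, adjusted p = 0.957), and its sign differed between scalings, at 0.029 with median-of-ratios rescaling. WT replicate 3, with 146 CPM of Cbln1 (named after its values were seen) against 60.1 to 77.6 CPM elsewhere, did not stand apart in C1ql1. Of the 8 genes of the C1q-like and cerebellin family, its receptor Adgrb3 included, 3 had an unadjusted p of at most 0.05 (1 lower and 2 higher, beside 9.29% and 2.27% of all genes tested) and none an adjusted p under 0.05. C1ql4 was at 1.77 to 1.95 CPM in WT and at 2.44 to 2.45 CPM in those labelled Rag1-/- (log2 fold change 0.36, adjusted p = 0.369), without overlap. C1ql2 had a log2 fold change of 0.22 (adjusted p = 0.432) and Cbln4 of -0.24 (adjusted p = 0.417), both with overlapping groups. Cbln4 in WT replicate 3 (22.6 CPM) lay within the range of those labelled Rag1-/- (21.4 to 23.3 CPM). With the term for high Xist, the log2 fold change of Cbln4 was -0.0035 (unadjusted limma-trend p of 0.968), while it was 0.31 for C1ql4 (unadjusted p of 0.116) and 0.18 for C1ql2 (unadjusted p of 0.234), with larger standard errors. With a library left out, the unadjusted p was above 0.05 in 5 of 6 fits for Cbln4, 4 of 6 for C1ql2 and 1 of 6 for C1ql4.

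Of 47 other complement genes listed, 36 were in the table and 31 passed the filter on low levels. By limma-trend 1 of the 31, Cd59a, had an adjusted p under 0.05 and 1 more, Cd59b, an unadjusted p of at most 0.05, both lower, beside 11.6% of all genes at the latter threshold in either direction. Both encode inhibitors of the membrane attack complex and lie on chromosome 2 (Cd59b chr2:104071010-104084957, Cd59a chr2:104095801-104115410). Whether their differences follow from the loss of Rag1 or from another difference between the strains was not tested. Cd59a was at 25.9 to 27.7 CPM in WT and at 6.95 to 7.80 CPM in those labelled Rag1-/- (adjusted p = 2.21e-05), and Cd59b at 0.426 to 0.692 CPM and 0.226 to 0.372 CPM (adjusted p = 0.373). The unadjusted p of Cd59b, which rests on an estimated 8 to 24 reads, was above 0.05 in 3 of 6 fits with a library left out (without WT replicate 3, or replicate 1 or 3 labelled Rag1-/-). Among the other starters of the classical and lectin pathways 0 of 7 tested genes reached an unadjusted p of at most 0.05, with log2 fold changes from -0.83 to 0.37. For the alternative pathway (Cfb and properdin, Cfp) it was 0 of 2, for the terminal pathway 0 of 2 and for the other receptors 0 of 6. Cfp was at 1.70 to 2.64 CPM in WT and 1.56 to 2.06 CPM in those labelled Rag1-/- (adjusted p = 0.773). The median log2 fold change was -0.08 for the 31 other genes and -0.08 for the 10 members.

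**Figure D5:**
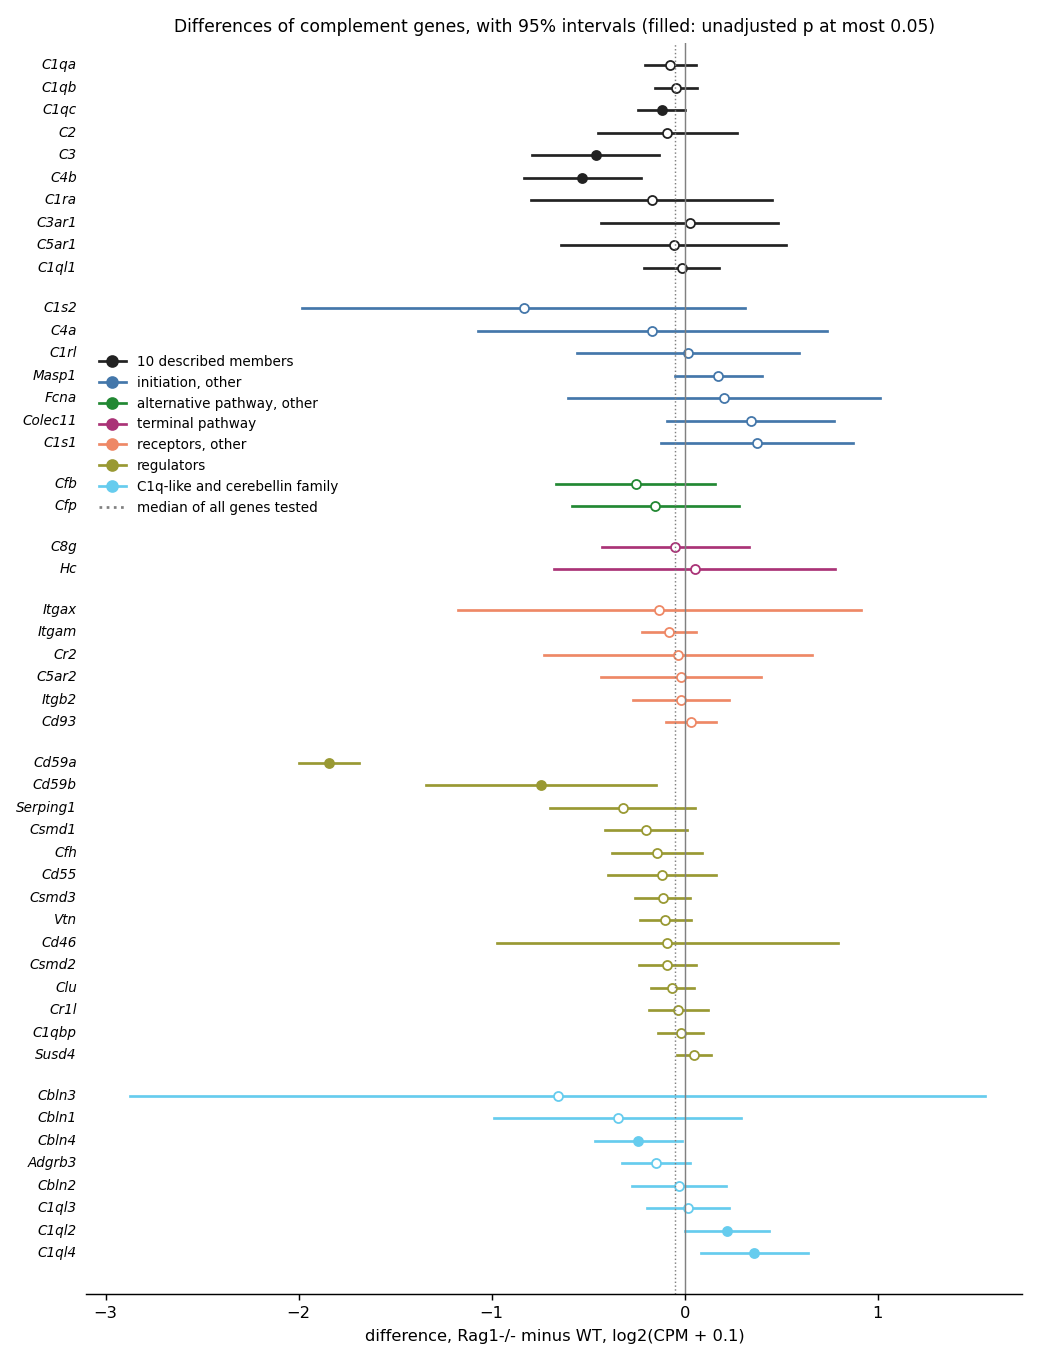
Difference between the groups (Rag1-/- minus WT, log2(CPM + 0.1)) with its 95% interval for the 10 members in black and for the other tested complement and C1q-like genes in color by role. Filled points mark p of at most 0.05 before adjustment (limma-trend), and the dotted line is the median of all genes tested (-0.05); C4b and C3 lie left of the other members, and Cd59a at -1.84.

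RefSeq promoter sequences (GRCm38.p6) were at hand for 6 of the 10 members, C1qb, C1qc, C1ra, C3, C3ar1 and C5ar1. The 250 bases before the start were searched on both strands for an interferon response element core (GAAA, any 2 bases, GAAA), the GAS element (TTCNNNGAA), a C/EBP core (TTGCNNAA) and a PU.1 site (GAGGAAGT). None of the 6 held either interferon motif, which 2.98% and 7.02% of all 32851 promoters hold. C3, the member of this set whose groups did not overlap, held 1 C/EBP core beginning 45 bases before the start, a match found in 9.56% of promoters, and C1qc held 1 PU.1 match on the opposite strand beginning 195 bases before the start, found in 2.44% of promoters. Both sequences are printed with the match in capitals, C3 from chr17:57228137-57228386 and C1qc from chr4:136892915-136893164, each on the minus strand.
C3: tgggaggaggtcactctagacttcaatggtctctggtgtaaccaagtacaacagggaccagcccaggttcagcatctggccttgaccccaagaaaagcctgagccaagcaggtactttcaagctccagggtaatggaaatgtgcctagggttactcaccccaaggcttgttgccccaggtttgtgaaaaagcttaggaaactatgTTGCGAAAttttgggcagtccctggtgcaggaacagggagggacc
C1qc: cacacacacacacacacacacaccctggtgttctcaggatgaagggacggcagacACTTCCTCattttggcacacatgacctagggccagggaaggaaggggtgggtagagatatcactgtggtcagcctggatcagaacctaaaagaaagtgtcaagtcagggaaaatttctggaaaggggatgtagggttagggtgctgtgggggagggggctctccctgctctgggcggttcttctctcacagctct
A match describes the letters of this window and is no evidence of binding.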

How the data were processed

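RNA of 6 brainstem samples (3 WT, 3 Rag1-/-) was sequenced on an Illumina HiSeq. Per the methods and labels, the authors demultiplexed with bcl2fastq, aligned with STAR 2.5.3a to mm10 and counted reads on RefSeq genes in Partek Flow. The authors deposited CPM values per gene and library, whose lowest value is 0.0001. The samples are labelled as 3 replicates per genotype, and whether each came from a single mouse is not stated. Whether genes were filtered is not stated either. The library kit and its strandedness are not given in the sources used here.

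Depth was estimated from the steps among low CPM values, of which 84.5% to 86.1% were whole multiples of 1 read within 0.1 read. Whole reads were thus not recovered, and no count test was run. Genes averaging 0.1 CPM or more (16762) entered the test on log2(CPM + 0.1) with limma-trend (limma 3.58.1, R 4.3.3), with Benjamini-Hochberg adjustment over all of them; the 1296 others were not tested. The pseudocount understates changes of low genes. The fit was tested on simulated data. Ratios, shares and single genes were compared with exact two-sided permutation tests.

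Transcript lengths and coding sequence came from GENCODE M21 (longest basic coding transcript), promoters from RefSeq GRCm38.p6, both on the build of the files (mm10). End coordinates are 1 base before the deposited stop.

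The members, the pathway and marker lists and the rule for named genes (all members, their partners, and other listed genes whose unadjusted p did not exceed 0.05) were chosen with earlier results of these data known. A listed microglia marker is not reported here and was left out of the sums. The alternatives were other pseudocounts, filters, scalings and variance models, a replicate block, a term for Xist over 100 CPM, and each library left out in turn. Replicate numbers did not pair the samples, since deviations from the group means correlated at 0.093, -0.22 and -0.018 for numbers 1, 2 and 3.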

Additional observations from a re-analysis of the deposited data

How the results depend on the processing

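Under 16 alternatives, 0 members had an adjusted p under 0.05 in each, and between 2 and 4 had an unadjusted p of at most 0.05, all lower; C3 and C4b were among them in all 16. The 4 came with the term for Xist over 100 CPM (C1qa, C1ra, C3 and C4b). The share of all genes at this threshold was taken only without alternatives (9.29% lower). A change of these counts therefore cannot be read as a result about the members. In 5 of the 16 (filters, variance models and the replicate block) a fold cannot change by construction. Over the other 11, 99 of 110 values of members kept their direction and 11 reversed, all of genes with a log2 fold change between -0.17 and 0.03. Since no member passed the adjusted threshold anywhere, staying on that side says nothing about stability. Of the unadjusted p, 13 values changed side of 0.05, 11 of them of C1qc and the others of C1qa and C1ra with the Xist term. That term also gave larger moves than any library left out in C4b (-0.71), C1ra (-0.70), C3ar1 (0.37), C5ar1 (-0.43), C2 (-0.26), C1qa (-0.16), C1qb (-0.08) and C1qc (-0.16), but not in C3 and C1ql1. With quantile normalization C2 was 0.0093, C5ar1 0.070 and C1ql1 0.032, and with median-of-ratios rescaling C1ql1 was 0.029. With a library left out, C1ra ranged from -0.34 to 0.095, C3ar1 from -0.15 to 0.17, C5ar1 from -0.27 to 0.13 and C1ql1 from -0.10 to 0.062. Of 131 such values of other named genes, 120 kept their direction and 11 reversed, and Cd59a lost its call with ordinary per-gene variance (adjusted p = 0.0855). C1s1 was -0.00044 with the Xist term, C5ar2 was 0.020 with median-of-ratios rescaling and 0.098 with quantile normalization, and with a library left out C4a ranged from -0.55 to 0.12, Cfp from -0.29 to 0.017, Hc from -0.13 to 0.25 and C5ar2 from -0.065 to 0.060.

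Among the other complement genes, 2 reached an unadjusted p of 0.05 or less. The count was 1 with a mean CPM of at least 1, where fewer genes are tested, 5 with quantile normalization (2 lower, 3 higher) and 5 with the Xist term, and from 1 (without replicate 1 labelled Rag1-/-) to 6 (without replicate 2 labelled Rag1-/-) with a library left out. These counts also have no share of all genes under the same alternative beside them. The cause of the other changes was not tested. The log2 ratio of C1q to microglia markers ranged from -0.11 to 0.0077 with a library left out and was positive only without WT replicate 3; it was -0.097 without Ctss and -0.081 with the mean of log2 values. The difference in the share of C1qa ranged from -0.38 to 0.47 percentage points with a library left out, that of C1qb from 0.47 to 1.41 and that of C1qc from -1.04 to -0.58.

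The samples share only a number, so that the replicate block is no pairing. With the replicate block, C4b had an unadjusted p of 8.64e-05 and an adjusted p of 0.145, C3 an unadjusted p of 0.0252, the members with an unadjusted p of at most 0.05 were 2. A block of this balanced design cannot change a difference of means, so the ratio of C1q to microglia markers is -0.062 by construction and the shares of the C1q chains, whose block was chosen after seeing the data, are likewise fixed. C5ar1, C1ra, Hc, C1s1, C1s2, C4a, C5ar2 and Cd59b rest on at most 40 reads per library, which limits the precision of their values.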
